A study of Mus musculus with 18 samples.

Results

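The genes that take up heme, break it down and store or move the iron it releases were followed through the RNA-seq libraries of J774.1 cells, a mouse macrophage cell line, treated with inhibitors of the C-terminal binding proteins (CTBPs). The group holds 10 genes picked by symbol for their function, namely Hmox1, Hmox2, Blvra, Blvrb, Fth1, Ftl1, Slc40a1, Slc48a1, Tfrc and Bach1, out of 18204 genes in the table. The choice was made with earlier results of these data known. All 10 passed the filter on low values, which left 16383 genes for testing. Values are TPM, the share of a sample's transcripts that a gene holds after correction for its length.

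The 18 samples fell into 6 groups of 3. J774.1 cells were either wildtype or lacked both Ctbp1 and Ctbp2 (Ctbp1/2 dKO, made by CRISPR), and each genotype was kept for 4 h with 1.5 mM MTOB (4-methylthio-2-oxobutanoate), with 250 µM 4-Cl-HIPP (a hydroxyimino acid with a chlorophenyl ring) or with a PBS/DMSO vehicle. Both compounds compete for the substrate pocket of the CTBP dehydrogenase domain, and the study asked how far their effects need CTBPs. The vehicle samples of a genotype served both inhibitors, so the inhibitor comparisons share their controls. An inhibitor effect and a genotype difference under vehicle share samples too. MTOB was dissolved in PBS and 4-Cl-HIPP in DMSO, and the paper names the vehicle as PBS/DMSO in its methods and as DMSO elsewhere. Whether each inhibitor sample held the same solvents as its vehicle is not stated, and the part of the solvent was not tested. The dKO cells came from single-cell outgrowth, and genotype and clone therefore cannot be told apart.

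The labels were checked on Ctbp1, which ran from 170.1 to 238.4 TPM in the 9 wildtype samples and from 19.7 to 31.5 TPM in the 9 dKO samples, and on Ctbp2, which ran from 87.8 to 96.9 TPM against 68.5 to 81.9 TPM. Neither gene overlapped between the genotypes, but RNA of both, of Ctbp2 above all, was still present in the dKO cells. The paper reports a premature stop and a frameshift in both genes, and loss of both proteins on western blot. The 7 macrophage markers analysed, among them Csf1r, Cd68 and Lyz2, were above 1 TPM in every sample. Markers of erythroid cells (4 analysed), lymphocytes (2) and fibroblasts or epithelium (2) did not exceed 2.07 TPM anywhere, and the hemoglobin genes Hba-a1 and Hba-a2 stayed at or below 1.21 TPM. Replicates of a group correlated at r = 0.983 to 0.987 over the tested genes. As TPM keeps no read totals, the depth of each library is unknown.

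Macrophages recycle the iron of aged red cells. Heme reaches the cytosol through the transporter SLC48A1 (HRG1), heme oxygenase opens the ring to biliverdin, carbon monoxide and iron, and the biliverdin reductases turn biliverdin into bilirubin. The iron is stored in ferritin, a shell of heavy (FTH1) and light (FTL1) chains, or leaves the cell through ferroportin, the product of Slc40a1. The transferrin receptor (Tfrc) brings iron in from outside. Control of these genes is well known on 2 levels: BACH1, which heme inactivates, represses heme oxygenase 1, ferritin and ferroportin transcription at sites that NRF2 can occupy, and the iron regulatory proteins bind hairpins called iron-responsive elements in the messenger RNA.

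The iron-responsive elements are shown because they set apart the members that the second level can reach. The canonical GENCODE transcripts (GRCm39, release M39) of all 10 members were searched for a 17-base pattern: a C, 5 bases, the loop CAGTG followed by A, C or T, and 5 bases that pair with the first 5, with G-T pairs allowed. Matches were found in 4 of the 10 members, and in 0.978% of 21770 protein-coding transcripts overall (0.519% in an untranslated region). The runs below are 29 bases of the transcript strand, written as DNA from 5′ to 3′ with the 6 bases of the loop in capitals. The first 3 lie in 5′ UTRs and the 4 of Tfrc in its 3′ UTR.
Fth1, chr19:9960096-9960124, plus strand: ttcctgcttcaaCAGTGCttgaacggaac
Ftl1, chr7:45109203-45109231, minus strand: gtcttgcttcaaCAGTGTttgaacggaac
Slc40a1, chr1:45964625-45964653, minus strand: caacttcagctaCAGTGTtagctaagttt
Tfrc element 1, chr16:32450037-32450065, plus strand: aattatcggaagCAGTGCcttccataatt
Tfrc element 2, chr16:32450416-32450444, plus strand: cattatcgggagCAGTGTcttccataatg
Tfrc element 3, chr16:32450481-32450509, plus strand: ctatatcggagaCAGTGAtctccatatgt
Tfrc element 4, chr16:32450528-32450556, plus strand: aattatcgggaaCAGTGTttcccataatt

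The ferritin elements differed at 3 of the 29 bases, T1G, C4T and C18T, with the Fth1 base given first and positions counted from the 5′ end of the run. Only C18T fell in the 17-base pattern, where it changes the last base of the loop. The Slc40a1 element shared 10 of the 17 pattern bases with that of Fth1. An element in the 5′ UTR acts on translation and one in the 3′ UTR on the stability of the RNA, so that of the members with a match Tfrc is the one whose RNA level is known to follow the iron regulatory proteins. Hmox1 (chr8:75820241-75827217), Hmox2 (chr16:4544216-4589816), Blvra (chr2:126912556-126939017), Blvrb (chr7:27147275-27165569), Slc48a1 (chr15:97676401-97690573) and Bach1 (chr16:87495782-87530234) held no match to these letters in their canonical transcript.

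MTOB raised 6 of the 10 genes in wildtype cells and the same 6 in dKO cells, and lowered none. They were Hmox1, Slc40a1, Slc48a1, Blvrb, Ftl1 and Fth1, and for each of them the 3 MTOB samples lay above the 3 vehicle samples in both genotypes, as they did for 10.6% of all genes in wildtype and 9.51% in dKO cells. Among all genes tested, 3.80% rose in wildtype and 3.04% in dKO cells at the same threshold, an adjusted p below 0.05 (limma on log2(TPM + 1), Benjamini-Hochberg). The median log2 fold change of the members was 0.36 in wildtype and 0.39 in dKO cells, and that of all genes -0.01 in both. In such bulk samples a change in every cell and a larger change in some of them cannot be told apart. With the further condition of a change over 1.5-fold, 3 members were called in each genotype, against 2.01% and 1.63% of all genes. They were Hmox1, Slc40a1 and Slc48a1 in wildtype cells, and Hmox1, Slc40a1 and Blvrb in dKO cells. Slc48a1 (1.53-fold in wildtype, 1.40-fold in dKO cells) and Blvrb (1.46-fold and 1.53-fold) lay near the limit.

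**Figure D1:**
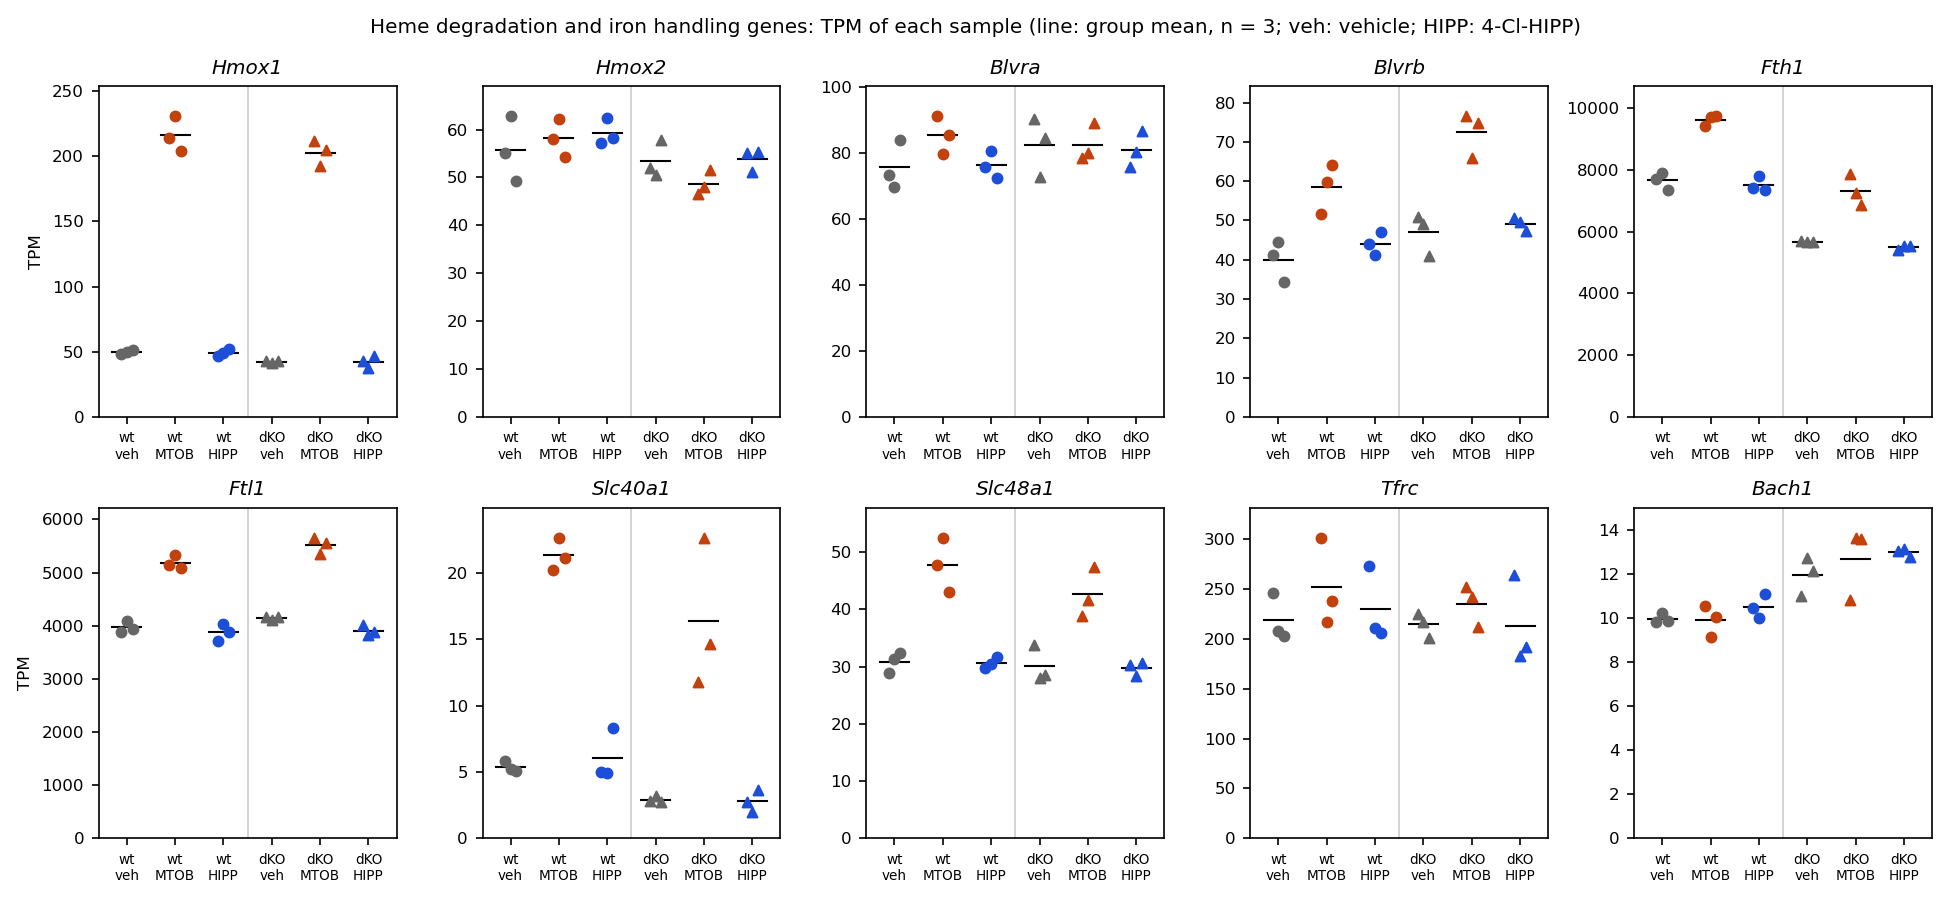
TPM (linear axis from 0, its own scale in each panel) of the 10 genes in each of the 18 samples, with circles for wildtype and triangles for dKO cells, colours for the treatments and a line at the mean of the 3 samples of a group. Hmox1 and Slc40a1 stand far above vehicle with MTOB in both genotypes, Fth1 lies lower in dKO samples under each treatment, and Hmox1 and Slc40a1 overlap between 4-Cl-HIPP and vehicle.

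Heme entry and breakdown came first. Slc48a1 was at 28.9, 31.3 and 32.3 TPM in the wildtype vehicle samples and at 47.8, 52.5 and 43.1 TPM with MTOB. The dKO samples went from 33.8, 28.1 and 28.6 TPM to 38.8, 41.6 and 47.5 TPM. The log2 fold change of this heme transporter was 0.61 (SE 0.09, adjusted p = 0.000345) in wildtype and 0.49 (SE 0.09, adjusted p = 0.00314) in dKO cells. The dKO value did not pass with a spread estimated from the compared groups alone (adjusted p = 0.104).

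Hmox1, the inducible heme oxygenase, rose over 4-fold in both genotypes. It was at 48.1, 49.7 and 51.5 TPM in wildtype vehicle samples and at 214.3, 230.8 and 203.8 TPM with MTOB. The dKO samples were at 42.5, 41.1 and 42.8 TPM with vehicle and at 211.4, 192.7 and 204.4 TPM with MTOB. The group means thus stood 4.35-fold apart in wildtype and 4.81-fold apart in dKO cells, while the SD within these groups was 0.881 to 13.6 TPM. The log2 fold changes were 2.10 (SE 0.07, adjusted p = 3.35e-11) and 2.24 (SE 0.07, adjusted p = 3.19e-11).

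Hmox2, the constitutive heme oxygenase, was at 55.7 ± 6.84 TPM (SD, n = 3) with vehicle and 58.2 ± 3.97 TPM with MTOB in wildtype cells, and at 53.4 ± 3.87 and 48.7 ± 2.64 TPM in dKO cells. The samples overlapped in both genotypes, and the log2 fold changes of 0.07 and -0.13 did not pass (adjusted p = 0.767 and 0.466). Under vehicle the levels of Hmox1 and Hmox2 were thus close, and with MTOB Hmox1 was the more abundant of the pair in every sample.

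Of the 2 biliverdin reductases, likewise, only Blvrb passed. Blvrb, which encodes the reductase also known as flavin reductase, was at 41.1, 44.5 and 34.3 TPM in wildtype vehicle samples and 51.5, 59.8 and 64.2 TPM with MTOB. The dKO samples were at 50.8, 49.1 and 41.1 TPM and then at 76.6, 66.0 and 74.8 TPM. Its log2 fold changes were 0.54 (SE 0.11, adjusted p = 0.00558) and 0.62 (SE 0.11, adjusted p = 0.00243). With a spread estimated from the compared groups alone, neither passed (adjusted p = 0.101 and 0.0626).

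Blvra, the main reductase of adult heme breakdown, was at 75.7 ± 7.32 TPM with vehicle and 85.5 ± 5.82 TPM with MTOB in wildtype cells, and at 82.6 ± 8.95 and 82.6 ± 5.73 TPM in dKO cells. The log2 fold changes of 0.17 and 0.00 did not pass (adjusted p = 0.338 and 1). The 95% confidence interval of the wildtype difference ran from -0.02 to 0.37. It overlapped that of Blvrb, 0.31 to 0.77, and the 2 genes were not tested against each other.

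Ferritin RNA was abundant from the start. Fth1 and Ftl1 together made up 1.16% ± 0.0354 of all TPM in wildtype vehicle samples (SD, n = 3) and 1.48% ± 0.0251 with MTOB, and 0.982% ± 0.00427 and 1.28% ± 0.0600 in dKO cells. Ftl1, the light chain, rose from 3888, 4090 and 3937 TPM to 5134, 5338 and 5078 TPM in wildtype cells. The dKO values rose from 4163, 4101 and 4157 TPM to 5657, 5340 and 5550 TPM.

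Fth1, the heavy chain with the ferroxidase centre that oxidises iron, rose from 7704, 7918 and 7366 TPM to 9413, 9710 and 9750 TPM in wildtype cells. In dKO cells it rose from 5696, 5673 and 5657 TPM to 7870, 7251 and 6860 TPM. The relative changes of both chains were small but well above their error: the log2 fold change of Ftl1 was 0.38 in wildtype and 0.41 in dKO cells (SE 0.03, adjusted p = 1.44e-06 and 6.95e-07), and that of Fth1 0.33 and 0.37 (SE 0.04, adjusted p = 7.37e-05 and 3.02e-05). In TPM these were the largest gains of the group, as the means of Fth1 and Ftl1 grew by 25.6% and 30.5% in wildtype and by 29.1% and 33.2% in dKO cells.

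Ferritin has processed pseudogenes that share its sequence. The 3 light-chain pseudogenes listed in the table held at most 1.32% of the summed light-chain TPM in any sample, and the 2 heavy-chain ones at most 0.0912%. Adding them to their parent genes, an alternative chosen after seeing the data, left the MTOB log2 fold changes at 0.39 and 0.41 for Ftl1 and at 0.33 and 0.37 for Fth1.

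The RNA of the iron exporter rose as well. Slc40a1, which encodes ferroportin, was at 5.83, 5.22 and 5.08 TPM in wildtype vehicle samples and at 20.2, 22.7 and 21.1 TPM with MTOB. In dKO cells it was at 2.85, 3.19 and 2.72 TPM and then at 11.8, 22.6 and 14.6 TPM, with replicate 2 well above the other MTOB samples of that genotype. The log2 fold changes were 1.81 (SE 0.21, adjusted p = 4.94e-05) and 2.10 (SE 0.21, adjusted p = 1.26e-05). Without dKO MTOB replicate 2 the dKO value was 1.85 (adjusted p = 4.27e-05). At these low levels the added 1 TPM holds the fitted change down: the means themselves stood 3.97-fold apart in wildtype and 5.60-fold apart in dKO cells.

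Tfrc, the receptor for transferrin-bound iron, was at 246.0, 207.6 and 202.8 TPM in wildtype vehicle samples and 301.5, 217.2 and 238.1 TPM with MTOB. Values in dKO cells were 225.4, 216.9 and 201.0 TPM with vehicle and 252.1, 241.9 and 211.4 TPM with MTOB. The samples overlapped, and the log2 fold changes of 0.20 and 0.13 (SE 0.15) did not pass (adjusted p = 0.561 and 0.726). Replicate 1 was the highest in Tfrc in all 6 groups, which widened the spread. The 95% interval in wildtype cells, -0.12 to 0.51, does not reach the changes of Hmox1 or Slc40a1. It does hold those of Fth1 (0.33) and Ftl1 (0.38).

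Bach1, which encodes the heme-sensitive repressor of Hmox1, was at 9.79, 10.2 and 9.85 TPM in wildtype vehicle samples and 10.5, 9.11 and 10.0 TPM with MTOB. In dKO cells it was at 11.0, 12.7 and 12.1 TPM and then at 10.8, 13.6 and 13.6 TPM. With log2 fold changes of -0.01 and 0.07 it did not pass in either genotype (adjusted p = 1 and 0.722). The RNA says nothing of BACH1 protein or its binding.

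**Figure D2:**
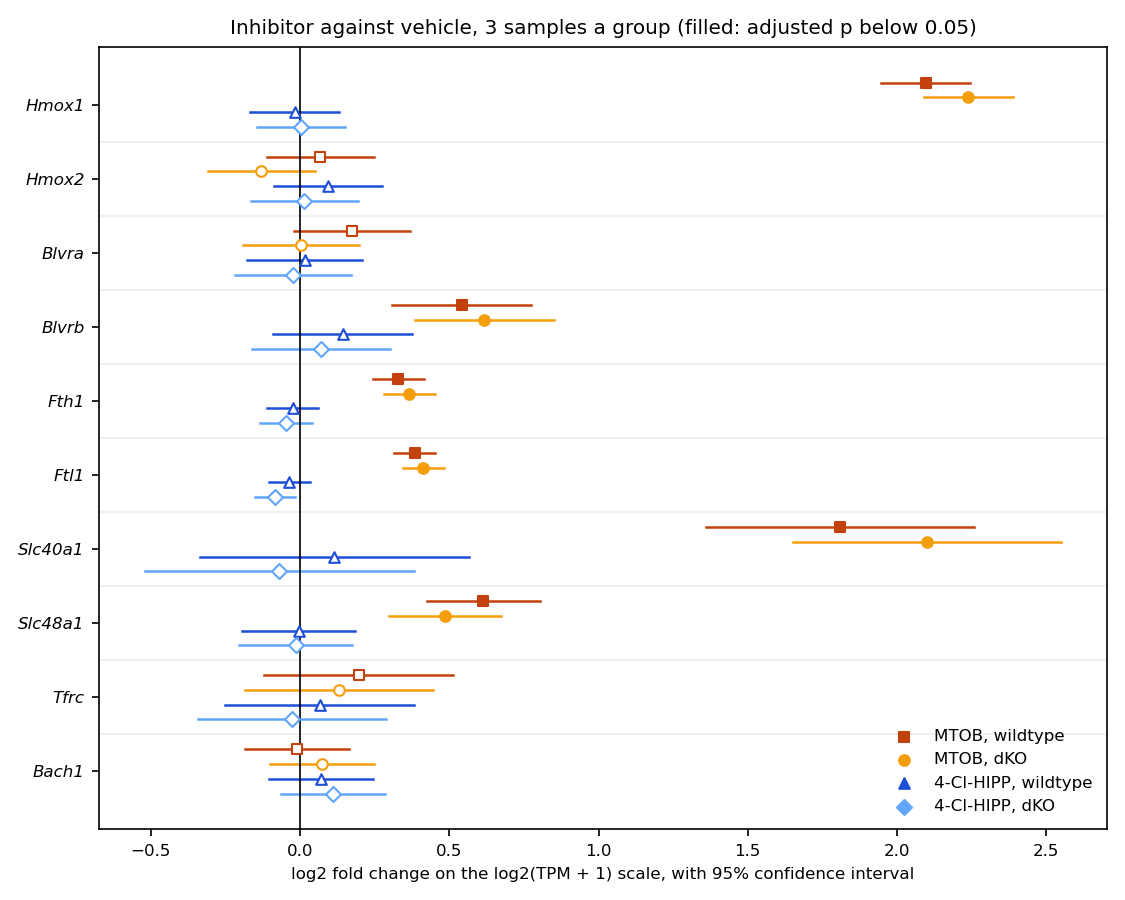
Log2 fold change of each gene against vehicle on the log2(TPM + 1) scale (x axis), with its 95% confidence interval, for both inhibitors in both genotypes. Filled symbols passed an adjusted p below 0.05, as 6 genes did with MTOB in each genotype and none with 4-Cl-HIPP.

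The response to MTOB was then compared between the genotypes by the interaction term, the wildtype effect minus the dKO effect. None of the 10 members passed in limma at an adjusted p below 0.05, as against 0.0916% of all genes. At an unadjusted p below 0.05 there were 0 of the 10 members and 6.89% of all genes, so the missing calls are nothing particular to the members. For Hmox1 the difference was -0.14 on the log2 scale (95% interval -0.35 to 0.07), for Ftl1 -0.03 (-0.13 to 0.07), for Fth1 -0.04 (-0.16 to 0.08) and for Slc48a1 0.13 (-0.14 to 0.40). The interval of Slc40a1 was the widest of the members, -0.93 to 0.35 around -0.29. These intervals, and not the missing calls, give how far the responses of the genotypes could differ.

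4-Cl-HIPP gave no call in this group. None of the 10 members passed in wildtype or in dKO cells, where 0.366% and 0.501% of all genes passed, in either direction. At an unadjusted p below 0.05 there were 0 members in wildtype and 1 in dKO cells, against 8.19% and 8.47% of all genes. That 1 member, Ftl1, was at 4017, 3820 and 3880 TPM with 4-Cl-HIPP against 4163, 4101 and 4157 TPM with vehicle (log2 fold change -0.08, adjusted p = 0.436). Hmox1 was at 46.7, 48.7 and 52.1 TPM with 4-Cl-HIPP in wildtype and at 42.8, 37.7 and 46.7 TPM in dKO cells, where the samples overlapped those with vehicle. Slc40a1 was at 4.97, 4.89 and 8.31 TPM in wildtype and at 2.75, 2.00 and 3.61 TPM in dKO cells, again overlapping. In wildtype cells all 10 members overlapped between 4-Cl-HIPP and vehicle, and in dKO cells 3 did not, against 12.6% and 13.7% of all genes without overlap. Besides Ftl1 these were Fth1, at 5400, 5536 and 5542 TPM with 4-Cl-HIPP and thus below the vehicle samples (log2 fold change -0.05, adjusted p = 0.843), and Bach1, at 12.7 to 13.1 TPM and above them (0.11, adjusted p = 0.792).

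The data bound these effects. All 20 confidence intervals, 10 in each genotype, lay within a 1.5-fold change in either direction on the log2(TPM + 1) scale, the outermost bounds being -0.52 and 0.56, both for Slc40a1. For Hmox1 they ran from -0.17 to 0.13 in wildtype and from -0.15 to 0.15 in dKO cells. The interaction passed in none of the 10 members and in 0% of all genes in limma, and at an unadjusted p below 0.05 in 0 members and 4.48% of all genes. MTOB is an oxo acid with a methylthio group and 4-Cl-HIPP an oxime with a chlorophenyl group. Because they were given at 1.5 mM and 250 µM, their values stand here side by side and no test between them was made.

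Between the genotypes the group divided differently. Under vehicle 3 members were lower in the dKO (Fth1, Slc40a1 and Hmox1) and none was higher, where 3.72% of all genes were lower and 7.01% higher. With MTOB, Fth1 was lower and Bach1 higher (4.18% and 6.98% of all genes). With 4-Cl-HIPP, Fth1 and Slc40a1 were lower and Bach1 higher (3.63% and 6.60%). Of these, Fth1 passed under all 3 treatments. The samples of the genotypes did not overlap in 5 of the 10 members under each treatment, against 26.1% of all genes with vehicle, 23.5% with MTOB and 25.2% with 4-Cl-HIPP. The 5 were not the same members each time, and only Fth1 and Bach1 were among them under all 3 treatments.

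The heavy chain of ferritin was 25.9% lower in the dKO under vehicle, 23.9% lower with MTOB and 27.1% lower with 4-Cl-HIPP. The log2 fold changes were -0.43, -0.40 and -0.45 (SE 0.04, adjusted p = 2.02e-06, 5.12e-06 and 1.15e-06), and the samples of the genotypes did not overlap within any treatment. The light chain did not pass within a treatment: Ftl1 differed by 0.06, 0.09 and 0.01 (SE 0.03, adjusted p = 0.312, 0.0942 and 0.893). The ratio of Fth1 to Ftl1 TPM accordingly ran from 1.82 to 2.00 over the 9 wildtype samples and from 1.24 to 1.45 over the 9 dKO samples. Within a genotype it moved little with treatment, from 1.93 ± 0.0554 (SD, n = 3) with vehicle to 1.86 ± 0.0546 with MTOB and 1.94 ± 0.0523 with 4-Cl-HIPP in wildtype cells, and from 1.37 ± 0.0114 to 1.33 ± 0.0817 and 1.41 ± 0.0555 in dKO cells.

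**Figure D3:**
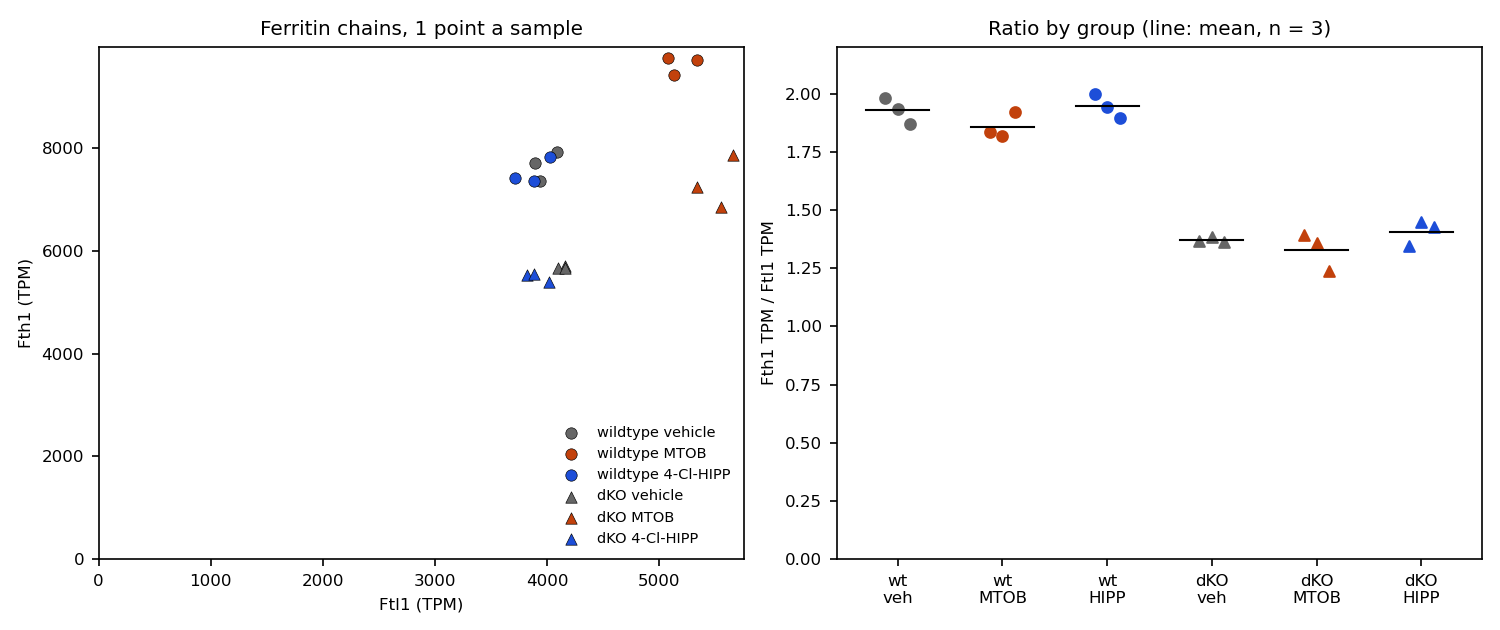
Left, Fth1 against Ftl1 (TPM, both axes from 0), 1 point a sample; right, the ratio of their TPM by group, with a line at the mean of 3 samples. Both genotypes move outward with MTOB (orange-brown), and the dKO samples (triangles) keep a lower ratio, 1.24 to 1.45 against 1.82 to 2.00.

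Slc40a1 was lower in dKO cells by a log2 fold change of -0.70 under vehicle (SE 0.21, adjusted p = 0.0449) and -0.89 with 4-Cl-HIPP (adjusted p = 0.0116), and the genotypes did not overlap there. With MTOB the difference was -0.41 (adjusted p = 0.276), and the samples overlapped through dKO replicate 2. The call under vehicle was lost on leaving out any 1 of the 6 vehicle samples (adjusted p = 0.0769 to 0.137), as it was with a pseudocount of 5 (adjusted p = 0.132). It was also lost with no filter (adjusted p = 0.0519) and with no variance trend (adjusted p = 0.0552). The call under 4-Cl-HIPP was lost with only its own groups fitted (adjusted p = 0.112), without wildtype replicate 3 (adjusted p = 0.0645) and without dKO replicate 2 (adjusted p = 0.0634).

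Hmox1 was 15.3% lower in dKO cells under vehicle (log2 fold change -0.23, SE 0.07, adjusted p = 0.0421). This call was likewise lost without any 1 of the 6 vehicle samples (adjusted p = 0.0635 to 0.142) and with no variance trend (adjusted p = 0.0688). The difference in Hmox1 was -0.09 (adjusted p = 0.513) with MTOB and -0.21 (adjusted p = 0.0701) with 4-Cl-HIPP. Bach1 was higher in dKO cells by 0.24 (SE 0.08, adjusted p = 0.0816) under vehicle, 0.32 (adjusted p = 0.0168) with MTOB and 0.28 (adjusted p = 0.0397) with 4-Cl-HIPP, without overlap of the samples in any of the 3. Its call with MTOB was lost with only its own groups fitted (adjusted p = 0.187) and without wildtype replicate 2, dKO replicate 2 or dKO replicate 3 (adjusted p = 0.0780 to 0.0816), and that with 4-Cl-HIPP without 5 of the 6 samples in turn (adjusted p = 0.0783 to 0.141).

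When the 3 genotype differences were averaged into 1 contrast, an alternative chosen after seeing the data, 7 members passed, 4 lower and 3 higher in dKO cells (9.27% and 13.1% of all genes). Fth1 (-0.43), Slc40a1 (-0.67), Hmox1 (-0.18) and Hmox2 (-0.15) were lower, with adjusted p = 1.19e-09, 0.000706, 0.00366 and 0.0391. Bach1 (0.28), Blvrb (0.23) and Ftl1 (0.05) were higher, with adjusted p = 0.000339, 0.0136 and 0.0473. Blvra, Slc48a1 and Tfrc did not pass (adjusted p = 0.558, 0.323 and 0.595).

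Some of the 7 macrophage markers also moved with genotype. Under vehicle Adgre1 (F4/80) differed by -1.59 and Itgam (CD11b) by 1.57 on the log2 scale between dKO and wildtype cells. Fcgr1 (0.62) and Cd68 (0.21) passed as well, while Csf1r (-0.06), Spi1 (-0.07) and Lyz2 (-0.09) did not. Adgre1 rose by 1.79 with MTOB in wildtype cells, and its 0.46 in dKO cells did not pass. Lyz2 rose with MTOB in both genotypes (0.37 and 0.24), Cd68 in wildtype (0.15) and Spi1 in dKO cells (0.34). Csf1r (-0.22 and -0.20), Itgam and Fcgr1 did not pass with MTOB in either. The summed TPM of the 7 macrophage markers, most of it from Csf1r, Cd68, Lyz2 and Spi1, ran from 2260 to 2319 with vehicle, 2430 to 2568 with MTOB and 2230 to 2273 with 4-Cl-HIPP in wildtype cells. In dKO cells it ran from 2300 to 2357, 2216 to 2529 and 2229 to 2277, so that it lay wholly above vehicle with MTOB in wildtype cells and overlapped vehicle in dKO cells. What part these marker shifts had in the values above was not tested.

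**Figure D4:**
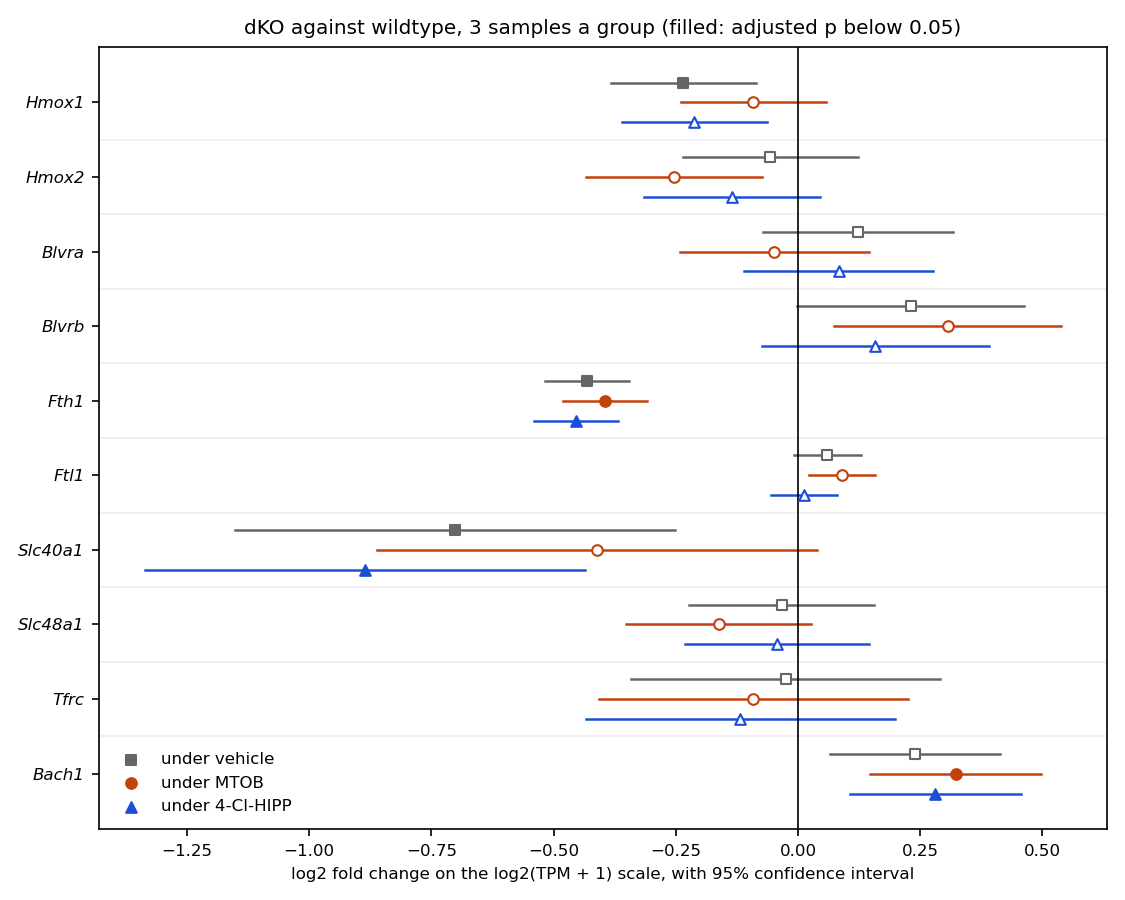
Log2 fold change of dKO against wildtype cells on the log2(TPM + 1) scale (x axis), with its 95% confidence interval, under each treatment. Filled symbols passed an adjusted p below 0.05, and Fth1 did so under all 3 treatments.

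The wider pathway was read from lists written from general knowledge, but chosen with earlier results of these data in view. The 6 lists on heme and iron outside the members (heme synthesis, heme transport, iron uptake and transport, ferritin handling, iron sensing and iron-sulfur cluster assembly) held 49 genes, of which 41 were tested. With MTOB 4 of them rose and 2 fell in wildtype cells, and 3 rose and 2 fell in dKO cells. Of all genes, 3.80% rose and 3.46% fell in wildtype cells, and 3.04% rose and 3.54% fell in dKO cells. Their median log2 fold change was -0.03 in wildtype and -0.02 in dKO cells. None of the 41 passed with 4-Cl-HIPP in either genotype, where 0.366% of all genes passed in wildtype and 0.501% in dKO cells.

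The best supported of the risers was Slc11a2 (DMT1), which carries ferrous iron out of endosomes. It went from 24.8 to 25.4 TPM in the wildtype vehicle samples to 38.8 to 42.5 TPM with MTOB (log2 fold change 0.68, SE 0.08, adjusted p = 4.10e-05) and rose by 0.41 (adjusted p = 0.00452) in dKO cells. Its relative Slc11a1 (NRAMP1), the metal transporter of the phagosome, had log2 fold changes of 0.98 (adjusted p = 0.0540) and 1.07 (adjusted p = 0.0372). Alas1, the first and rate-limiting enzyme of heme synthesis outside the red cell lineage, rose by 0.65 in wildtype cells (SE 0.18, adjusted p = 0.0448) and was at 0.08 (adjusted p = 0.883) in dKO cells. Hfe, a partner of the transferrin receptors, fell by 0.77 in wildtype cells (SE 0.18, adjusted p = 0.0146), with 10.4 to 12.1 TPM in vehicle and 5.56 to 7.25 TPM in MTOB samples, and was at -0.34 (adjusted p = 0.330) in dKO cells. For Slc11a1, Alas1 and Hfe, a difference between the genotypes is not shown by these calls.

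The genes of the iron regulatory proteins did not pass, and their RNA says nothing of the proteins or their activity. Ireb2, which encodes iron regulatory protein 2, had log2 fold changes of -0.03 and -0.06 with MTOB (SE 0.04, adjusted p = 0.767 and 0.468), and Aco1, which encodes iron regulatory protein 1, of -0.13 and -0.05 (SE 0.07, adjusted p = 0.379 and 0.787). None of the 4 tested genes of the iron sensing list passed between the genotypes, too few to read against the shares of all genes. Of the 41 genes, 2 were higher and 4 lower in dKO cells under vehicle, 0 and 6 with MTOB, and 1 and 4 with 4-Cl-HIPP. Of all genes, 7.01% were higher and 3.72% lower under vehicle, 6.98% and 4.18% with MTOB, and 6.60% and 3.63% with 4-Cl-HIPP. Alad, the second enzyme of heme synthesis (-0.44 under vehicle), Glrx5, a carrier of iron-sulfur clusters (-0.53), Slc39a14, an importer of iron and zinc (-0.47), and Cp were lower under all 3 treatments. Cp, the ferroxidase ceruloplasmin that works with ferroportin, was lower in dKO cells by -1.10 under vehicle (SE 0.25, adjusted p = 0.00947), although at no more than 3.74 TPM in any wildtype sample.

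**Figure D5:**
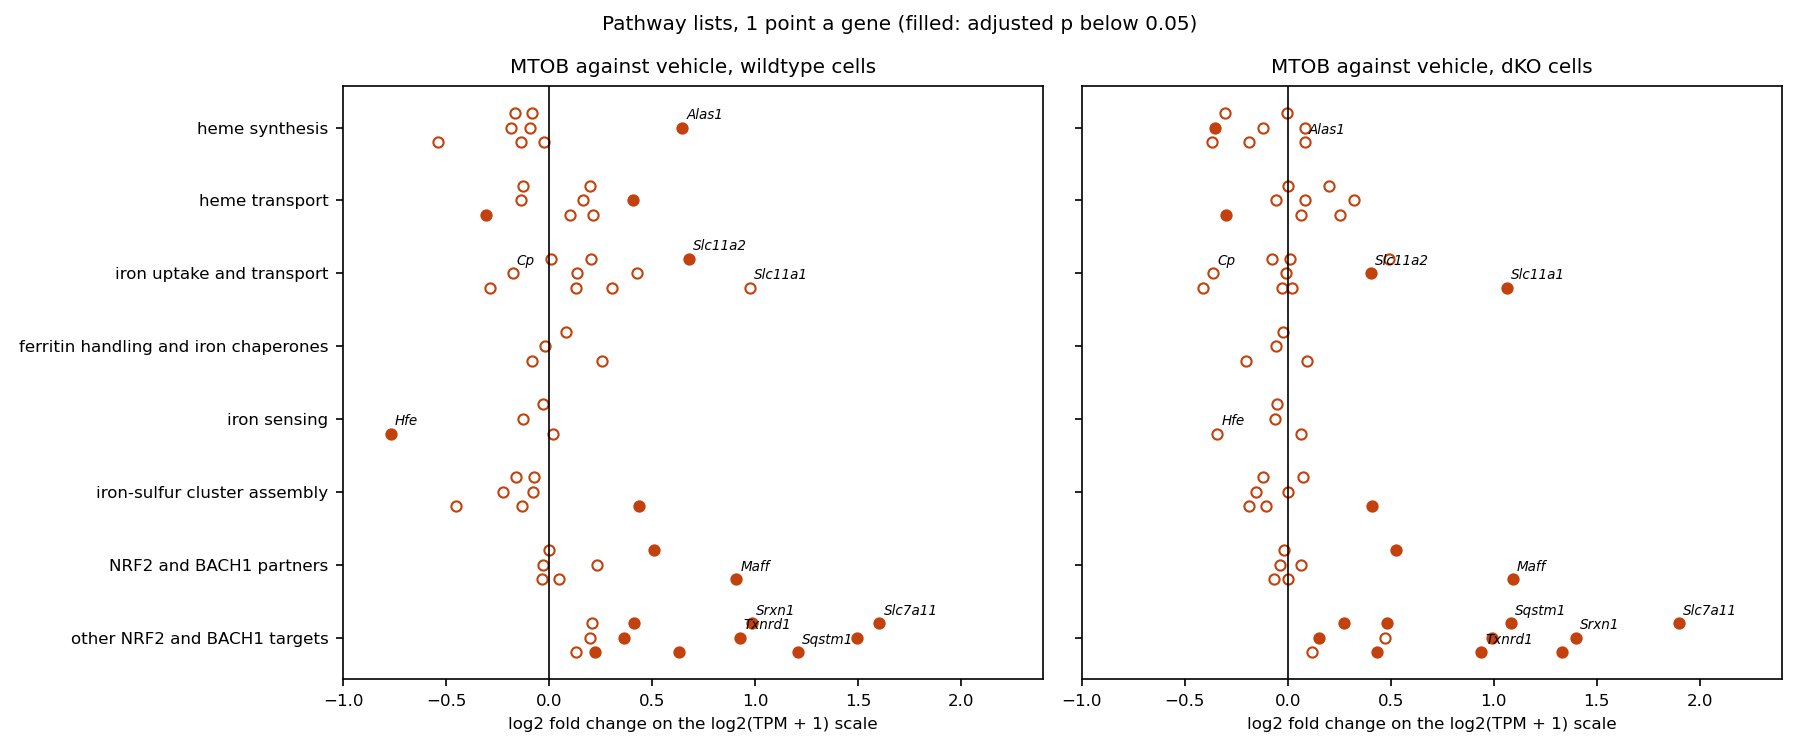
Log2 fold change with MTOB (x axis, log2(TPM + 1) scale) of each tested gene of 8 pathway lists, in wildtype cells on the left and dKO cells on the right. Filled points passed an adjusted p below 0.05. Of the 12 other NRF2 and BACH1 targets 9 did so in wildtype and 10 in dKO cells, all of them higher. Of all genes, 3.80% and 3.04% passed and were higher.

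Other known targets of NRF2 and BACH1 mostly rose with MTOB. Of 12 such targets outside heme and iron, 9 rose with MTOB in wildtype and 10 in dKO cells and none fell, with median log2 fold changes of 0.52 and 0.71. Of all genes, 3.80% rose in wildtype and 3.04% in dKO cells. This list too was chosen with earlier results of these data known. Slc7a11, the cystine importer, rose from 4.81 ± 0.379 to 16.7 ± 1.16 TPM in wildtype cells (log2 fold change 1.60, SE 0.10, adjusted p = 3.09e-08) and by 1.90 in dKO cells (adjusted p = 5.96e-09). Sqstm1, the autophagy receptor p62, rose by 1.21 and 1.08, Srxn1, the sulfiredoxin that restores peroxiredoxins, by 0.99 and 1.40, and Txnrd1, the cytosolic thioredoxin reductase, by 0.93 and 0.94 (all adjusted p = 8.37e-07 or lower). None of the 12 passed with 4-Cl-HIPP, where 0.366% of all genes passed in wildtype and 0.501% in dKO cells. These missing calls are therefore nothing particular to the targets. Between the genotypes under vehicle 5 of the 12 were higher and 1 lower in dKO cells, against 7.01% and 3.72% of all genes. The lower one was Slc7a11 (-0.61, adjusted p = 0.000402).

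Of their 7 regulators and partners, the small MAF genes Mafg (0.51 and 0.52) and Maff (0.91 and 1.09) rose with MTOB in both genotypes. Maff was low, with means of 0.763 TPM with vehicle and 2.30 TPM with MTOB in wildtype cells, and 0.578 and 2.43 TPM in dKO cells. Mafk, also a small MAF gene, did not pass (0.23 and 0.07). Nfe2l2, which encodes NRF2, was at -0.03 and -0.04 (SE 0.05, adjusted p = 0.864 and 0.779). Keap1, whose product holds NRF2 back, was at -0.03 and -0.02 (SE 0.06, adjusted p = 0.858 and 0.939). Here too the RNA says nothing of the proteins.

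The core of the antioxidant response element, TGACNNNGC, was searched on both strands in the promoters of the RefSeq table (GRCm38.p6, 250 bases before to 50 after each start). It was present in 12.4% of 32851 promoters, or in at least 1 promoter of 14% of the 27025 genes. Of the 7 members with an entry only Blvra held it. Hmox1, Slc40a1 and Slc48a1 have no entry. Of the 10 other NRF2 and BACH1 targets with an entry, 6 held it (G6pdx, Gclm, Me1, Prdx1, Srxn1 and Txnrd1). A match is not evidence of binding, and its absence speaks only of these letters in this window.

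The genes whose pattern was closest to that of Hmox1 over the 18 samples, by Pearson correlation of log2(TPM + 1) among 11034 non-member genes, were Glipr1 (r = 0.992), Ptgir (0.988), Selenow (0.987), Plek (0.981) and Tpm4 (0.980). They are a description without a test, since the points share libraries and a common MTOB shift. Glipr1 went from a mean of 113.5 to 312.6 TPM with MTOB in wildtype and from 89.8 to 275.5 TPM in dKO cells, and Selenow, a selenoprotein, from 29.4 to 89.8 and from 24.0 to 78.3 TPM. Among the members, Ftl1 (r = 0.959), Slc48a1 (0.944) and Slc40a1 (0.941) came closest, and Fth1, with its genotype offset, stood at 0.683.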

How the data were processed

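RNA of J774.1 cells (2 genotypes, 3 treatments, 3 samples a group) was sequenced paired-end from unstranded libraries. The authors quantified transcripts of GENCODE M28 (GRCm39) with Salmon 1.9.0 and summarised them to genes with tximport, and deposited scaled TPM per sample, which sum to between 999766 and 999897, and 1 mean normalized count over all samples from DESeq2 1.44.0 (a signal used here for the filter and the variance trend). The table also holds 8 columns of the authors' own log2 fold changes and adjusted p-values for each inhibitor in each genotype; these were not used. As the deposited TPM hold no reads, counting error and depth are unknown, and n = 3 limits the precision; replicates are biological triplicates per the methods.

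The unit is TPM, so limma 3.58.1 (R 4.3.3) was used on log2(TPM + 1) with 6 group means in 1 model, after removing genes at or below the 10th percentile of the mean normalized count, with a variance trend on that count and Benjamini-Hochberg adjustment over 16383 genes. A gene passed at an adjusted p below 0.05, and was called where the change also exceeded 1.5-fold. Fold changes on this scale understate those of low genes. The fit was run on simulated data with independent noise, in which genes of higher counts and small spread were raised. That run does not vouch for low genes or for effects that samples share. Alternatives changed the pseudocount, filter, trend, scaling, samples and replicate term. Named genes are the members, at most 4 called genes a list by smallest p, and the 5 genes most like Hmox1. Others named (Mafg, Mafk, Ireb2, Aco1, Nfe2l2, Keap1, Alad, Glrx5, Slc39a14, Adgre1, Itgam, Fcgr1) were chosen after their values were seen. The members and lists were chosen with earlier results of these data known. Figures used matplotlib 3.10.9.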

Additional observations from a re-analysis of the deposited data

How the results depend on the processing

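Over 14 alternatives each, 5 to 6 members passed with MTOB in wildtype and 4 to 6 in dKO cells, 0 with 4-Cl-HIPP, and 0 in the interactions (20 alternatives). Fitted on its own groups alone, Blvrb no longer passed with MTOB in either genotype (adjusted p = 0.101 and 0.0626). Slc48a1 likewise no longer passed in dKO cells (adjusted p = 0.104). These fits hold fewer samples. The genotype results were less stable. Under vehicle the count of 3 members fell to 1 with no variance trend and to 1 with the replicate block, was 1 without any single vehicle sample, and was 7 for the mean of the 3 treatments. With MTOB the count of 2 fell to 1 with only the compared groups and ranged from 1 to 2 without single samples; with 4-Cl-HIPP the count of 3 ranged from 1 to 3. No value that passed in either fit changed sign. Over all tested genes no pairing by replicate number was seen. The deviations of same-numbered samples correlated at -0.09 to 0.09 over 45 pairs, and those of other-numbered samples at -0.08 to 0.09 over 90. This cannot show that single genes were unpaired, and Tfrc was highest in replicate 1 in all 6 groups. With the replicate block Hmox1 (adjusted p = 0.0507) and Slc40a1 (0.0581) no longer passed under vehicle, nor did Bach1 (0.0506) with 4-Cl-HIPP. No other member came to pass or ceased to pass with it. For Tfrc the block lowered the SE from 0.15 to 0.08, but Tfrc did not pass (adjusted p = 0.194 with MTOB in wildtype cells). Leaving out dKO MTOB replicate 2 made Slc40a1 pass between genotypes with MTOB (-0.66, adjusted p = 0.0483), and leaving out dKO 4-Cl-HIPP replicate 3 made Hmox1 pass with 4-Cl-HIPP (-0.28, adjusted p = 0.0179). Causes were not tested.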
